A study of Mus musculus with 6 samples.

Results

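The genes described here build, load and regulate the major histocompatibility complex (MHC), the set of cell surface proteins that show peptides to T cells. They are the rows of the count table whose symbol starts with *H2-*, pseudogenes marked -ps aside, together with *B2m*, *Tap1*, *Tap2*, *Tapbp*, *Psmb8*, *Psmb9*, *Psmb10*, *Cd74*, *Ciita* and *Nlrc5*. This rule gave 55 of the 49548 genes in the table, 45 of them *H2-* genes. The GENCODE annotation lists 46 of the 55 as protein coding and the rest as pseudogenes of several kinds. They were measured by mRNA sequencing of native cardiac fibroblasts (CFs), which were freshly isolated from mouse hearts by enzymatic dissociation and depletion of hematopoietic lineage cells. WT libraries (n = 3) came from C57BL/6 J mice and CharmeKO libraries (n = 3) from mice of the same strain in which a polyadenylation signal inserted in the *Charme* locus stops the long non-coding RNA *Charme*, and all were aged 5 weeks and received no treatment. A culture medium is also named in the labels, whereas the methods describe fresh isolation. Hearts came from 3 mice of each genotype by the methods, but the labels do not tie a library to an animal, so p-values measure the spread between these libraries. The comparison asks whether loss of *Charme*, a transcript of cardiomyocytes, comes with a different transcriptome in the fibroblasts of the heart.

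MHC class I molecules consist of a heavy chain and the light chain β2-microglobulin and stand on nearly all nucleated cells. The proteasome cuts cytosolic proteins, a transporter made of *Tap1* and *Tap2* carries the peptides into the endoplasmic reticulum, and tapasin holds the empty heavy chain there until a peptide fits. MHC class II molecules consist of an α and a β chain, are assembled with the invariant chain *Cd74*, and are made mostly by B cells, dendritic cells and macrophages. Interferon γ raises both systems, class I through *Nlrc5* and class II through *Ciita*. Fibroblasts and endothelial cells carry class I molecules at rest.

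The libraries held between 9595701 counts in WT replicate 3 and 42101393 in WT replicate 1, and the members took 0.555% of all counts. CPM denotes counts for every 1e+06 in the library after TMM normalization. Where a gene had 0 counts, its level could still be up to 3 counts, or 0.0713 for every 1e+06 counts of the deepest and 0.313 of the shallowest library before the TMM factor, by counting error alone. Counts of *Charme* itself were 26, 15 and 4 in WT and 7, 0 and 0 in CharmeKO. *Xist*, the transcript of the inactive X chromosome, was between 376 and 473 CPM in WT replicate 1 and CharmeKO replicates 1 and 2 and at most 2.55 CPM in the other 3 libraries. *Ddx3y*, a gene of the Y chromosome, was between 48.6 and 57.1 CPM in those other 3 libraries and at most 2.06 CPM in the libraries with high *Xist*. Both groups thus held libraries of both kinds. Summed fibroblast markers (10 genes) lay between 31939 and 38215 CPM in WT and between 30125 and 35272 CPM in CharmeKO. Endothelial markers (10 genes) were also abundant, between 8160 and 9792 CPM in WT and between 8457 and 10718 CPM in CharmeKO, so the libraries were not of fibroblasts alone. Erythroid markers (5 genes) took between 26758 and 39184 CPM in WT and between 24397 and 31723 CPM in CharmeKO. In such bulk RNA, fewer cells of a type and less RNA per cell cannot be told apart.

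The promoters of the main class I and class II genes are shown first, as a description of their sequence. Their part in the levels of these libraries was not tested. Of the 55 members, 36 had a window of 300 bases in the RefSeq promoter table (GRCm38.p6), which spans 250 bases before and 50 bases after the start, and *H2-Ab1*, *Tap2*, *Nlrc5*, *Ciita* and *Cd74* are among those that did not. In the 190 bases before the start printed here, 5′ to 3′ on the strand of the gene, capitals mark 3 motifs. These are AANNGAAA, the core bound by interferon regulatory factors, GGGGATT followed by any base and CCC, a κB site of the class I enhancer, and the paired X2 and Y boxes TGANG and ATTGG with 19 to 21 bases between them, which together serve the complexes that recruit *Nlrc5* and *Ciita*. Both strands were searched, the motifs do not overlap each other in these stretches, and their letters were chosen after the windows had been read.

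H2-K1, chr17:34000348-34000537, minus strand: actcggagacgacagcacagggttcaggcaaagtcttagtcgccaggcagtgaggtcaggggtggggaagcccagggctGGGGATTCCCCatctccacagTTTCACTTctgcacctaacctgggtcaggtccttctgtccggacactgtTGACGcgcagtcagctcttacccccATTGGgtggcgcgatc
H2-D1, chr17:35262904-35263093, plus strand: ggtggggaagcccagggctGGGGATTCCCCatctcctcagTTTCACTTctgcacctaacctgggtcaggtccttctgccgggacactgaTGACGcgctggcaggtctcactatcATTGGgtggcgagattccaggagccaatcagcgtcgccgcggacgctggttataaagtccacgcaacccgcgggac
H2-Q4, chr17:35379427-35379616, plus strand: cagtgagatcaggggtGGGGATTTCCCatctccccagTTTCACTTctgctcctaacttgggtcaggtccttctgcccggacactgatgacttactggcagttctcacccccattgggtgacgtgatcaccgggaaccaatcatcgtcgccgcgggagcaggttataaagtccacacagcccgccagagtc
B2m, chr2:122147497-122147686, plus strand: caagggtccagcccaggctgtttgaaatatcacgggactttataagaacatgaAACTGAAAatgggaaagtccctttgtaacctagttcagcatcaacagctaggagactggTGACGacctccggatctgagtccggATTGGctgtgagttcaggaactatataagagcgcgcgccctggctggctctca
H2-Aa, chr17:34287824-34288013, minus strand: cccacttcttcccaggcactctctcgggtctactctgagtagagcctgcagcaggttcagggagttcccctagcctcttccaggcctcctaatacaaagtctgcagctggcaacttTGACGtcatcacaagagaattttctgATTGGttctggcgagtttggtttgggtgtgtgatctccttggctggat
H2-Eb1, chr17:34305677-34305866, plus strand: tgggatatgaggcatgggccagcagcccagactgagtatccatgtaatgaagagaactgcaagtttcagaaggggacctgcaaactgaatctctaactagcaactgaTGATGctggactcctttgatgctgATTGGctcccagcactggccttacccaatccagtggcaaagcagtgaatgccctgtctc

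The X2 and Y pair stood in 9 of the 24 windows of tested members, 4 of 10 from class I heavy chains and 4 of 8 from the class II group, against 0.947% of all 32851 windows. The interferon regulatory factor core was in 9 of the 10 heavy chain windows and 3 of the 8 class II windows, against 23.9% of all windows. The κB site was in 4 of the 10 heavy chain windows and 0 of the 8 class II windows, against 0.0761% of all. The motifs were chosen after these windows had been read, so the shares of all windows are no test of the members. These matches are descriptions of letters. *Tap1* and *Psmb9* are divergent neighbours whose windows share 275 bases (chr17:34187306-34187580), and none of the 3 motifs was found in either window. The search took only the letters given above, so sites with other letters would be missed.

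The libraries of native CFs held abundant class I transcripts and much lower class II transcripts. Which of the cell types in this bulk RNA carried them was not tested. Per kilobase of exon, *B2m* had the highest level of the members, 1049 ± 153 CPM per kb (SD, n = 3) in WT and 1242 ± 79.1 in CharmeKO. The classical heavy chains, which present peptides to cytotoxic T cells, followed, with *H2-D1* at 568 ± 92.7 and 591 ± 16.1 CPM per kb and *H2-K1* at 330.0 ± 48.2 and 313 ± 11.9. *H2-Q4*, a non-classical heavy chain, reached 185 ± 42.8 and 191 ± 3.62 CPM per kb. These 4 levels did not overlap with each other beyond their SDs, and the next, *Tapbp*, was at 115 ± 11.1 CPM per kb in WT. The highest gene of the class II group was *Cd74*, at 67.3 ± 24.5 and 64.8 ± 6.72 CPM per kb, with *H2-T23* within its spread in both groups and *H2-Q6* in WT. The chains themselves were lower, *H2-Ab1* at 24 ± 8.2 and 27.9 ± 5.18 CPM per kb, *H2-Eb1* at 17.6 ± 7.41 and 20.9 ± 3.55 CPM per kb and *H2-Aa* at 9.77 ± 3.71 and 12.5 ± 2.78. By CPM without regard to length, *H2-D1* ranked 60 and *B2m* 109 of the 15789 tested genes.

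**Figure D1:**
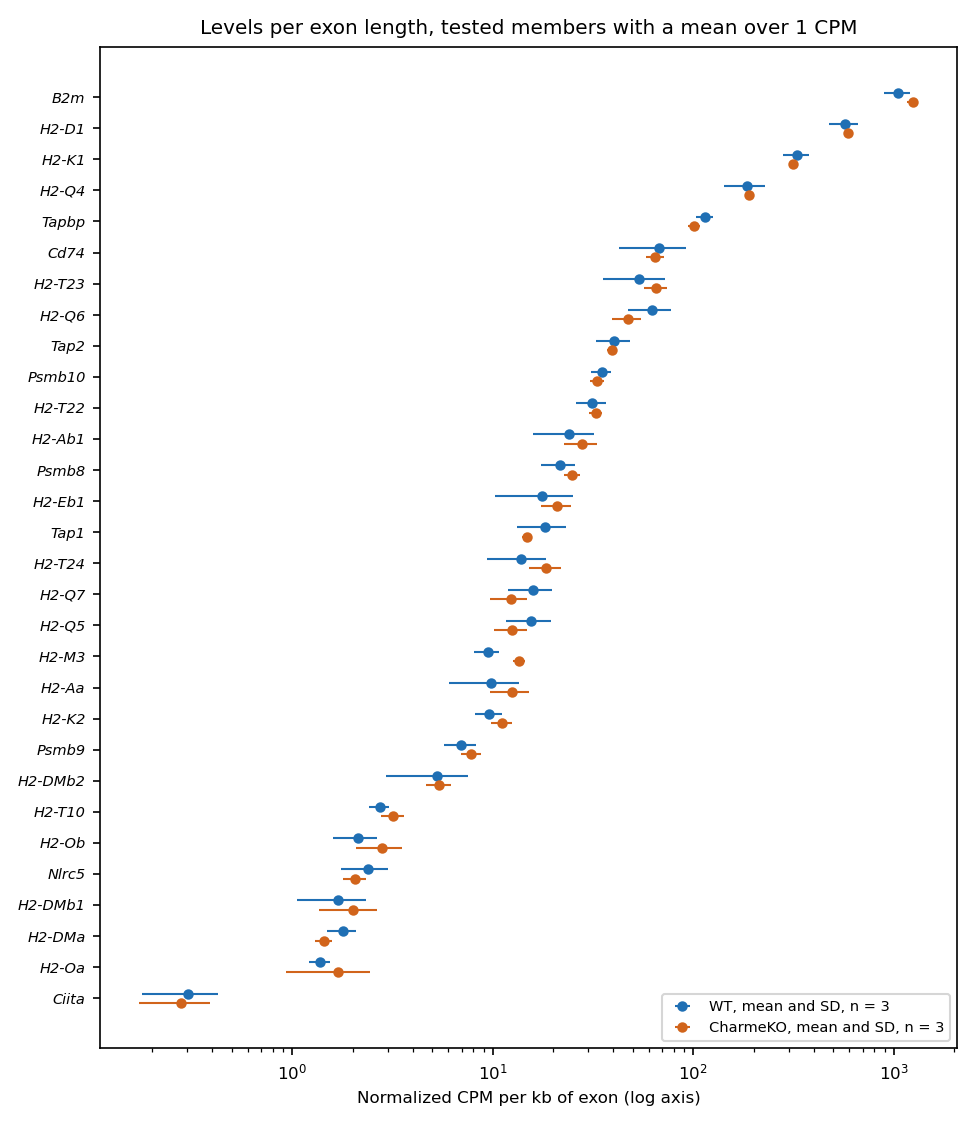
Normalized CPM per kb of exon (log axis) of the tested members with a mean over 1 CPM, as mean and SD of 3 WT and 3 CharmeKO libraries. *B2m*, *H2-D1*, *H2-K1* and *H2-Q4* lie at the top, the class II chains well below them, and the WT and CharmeKO means of each gene lie close together.

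At the other end, 13 members had no count in any library. They were *H2-M1*, *H2-M9*, *H2-M11*, *H2-M10.1*, *H2-M10.2*, *H2-M10.3*, *H2-M10.4*, *H2-M10.5*, *H2-M10.6*, *H2-T9*, *H2-Q3*, *H2-Pa* and *H2-Ea*. C57BL/6 mice carry the b haplotype of the MHC, in which *H2-Ea* is inactive, so that the β chain of *H2-Eb1* has no α partner. Another 8 members, *H2-T3*, *H2-T5*, *H2-T13*, *H2-T15*, *H2-Q1*, *H2-Q2*, *H2-M2* and *H2-Pb*, had at most 8 counts in a library and were not tested. The remaining 34 members had at least 10 counts in at least 2 libraries and were tested.

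**Figure D2:**
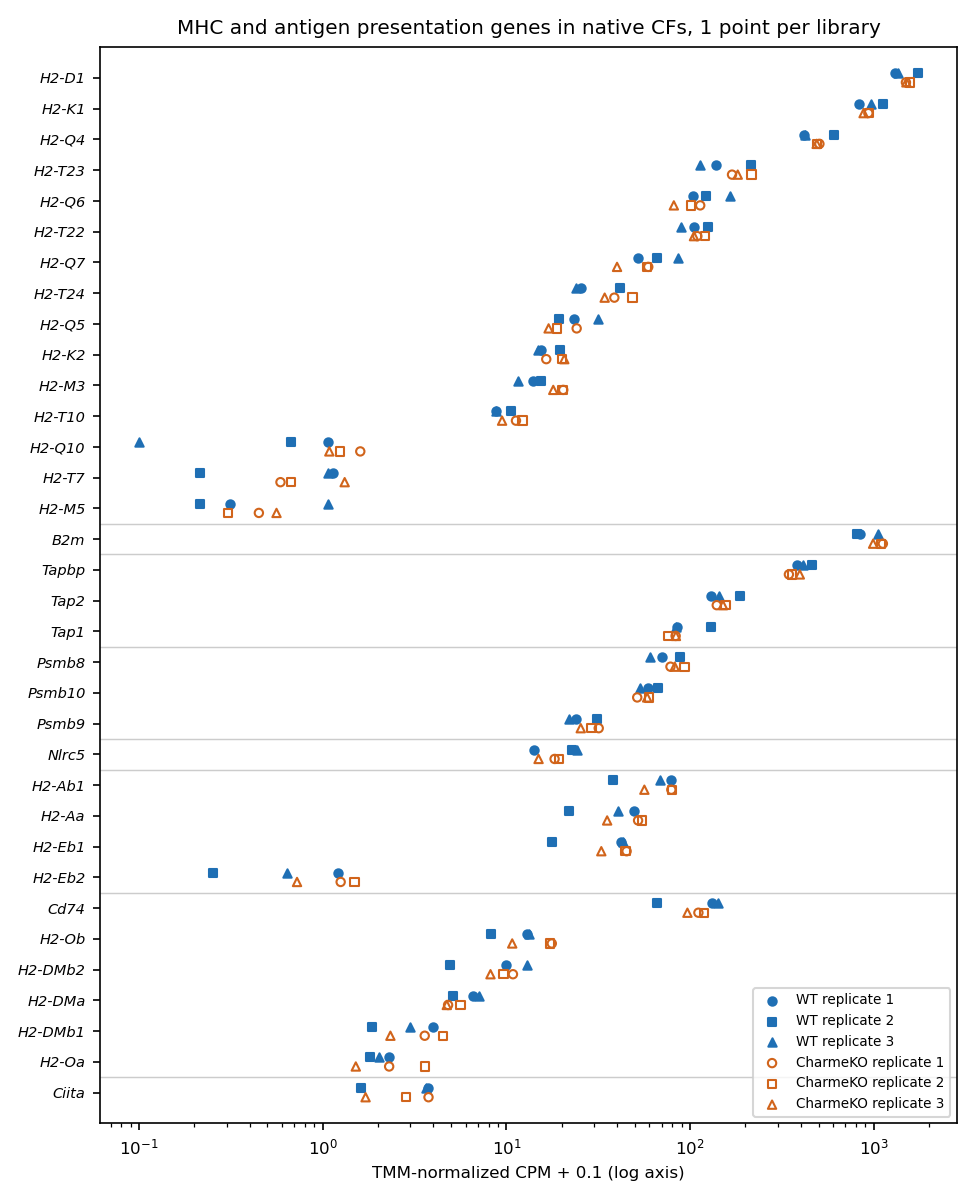
TMM-normalized CPM + 0.1 (log axis) of the 34 tested members in each of the 6 libraries, grouped by role. Filled symbols are WT and open symbols CharmeKO libraries, and their ranges overlap in all genes but *Tap1*, *H2-M3* and *H2-Q10*, while WT replicate 2 (square) stands lowest in most class II genes.

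None of the 34 tested members passed the threshold between CharmeKO and WT, in either direction. In edgeR's quasi-likelihood test across all 15789 genes, 0.830% of genes had a Benjamini-Hochberg adjusted p-value under 0.05, 0.412% of genes lower and 0.418% higher in CharmeKO. In DESeq2, the tool of the study, 2.50% of genes passed, 1.52% lower and 0.975% higher, and again 0 members. At an unadjusted p-value under 0.05 there were 2 members in edgeR and in DESeq2, against 12.8% and 12.6% of all genes. These were *H2-Q6*, lower in CharmeKO as 6.87% of genes were in edgeR, and *H2-M3*, higher as 5.90% were. The median log2 fold change of the tested members was 0.11 beside 0.01 for all tested genes, with 21 members above 0 and 13 below, where 48.8% of all genes were below. The groups did not overlap in 3 members, against 18.2% of all tested genes. *Tap1* was lower, as 8.59% of genes were, and *H2-M3* and *H2-Q10* were higher, as 9.58% were.

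**Figure D3:**
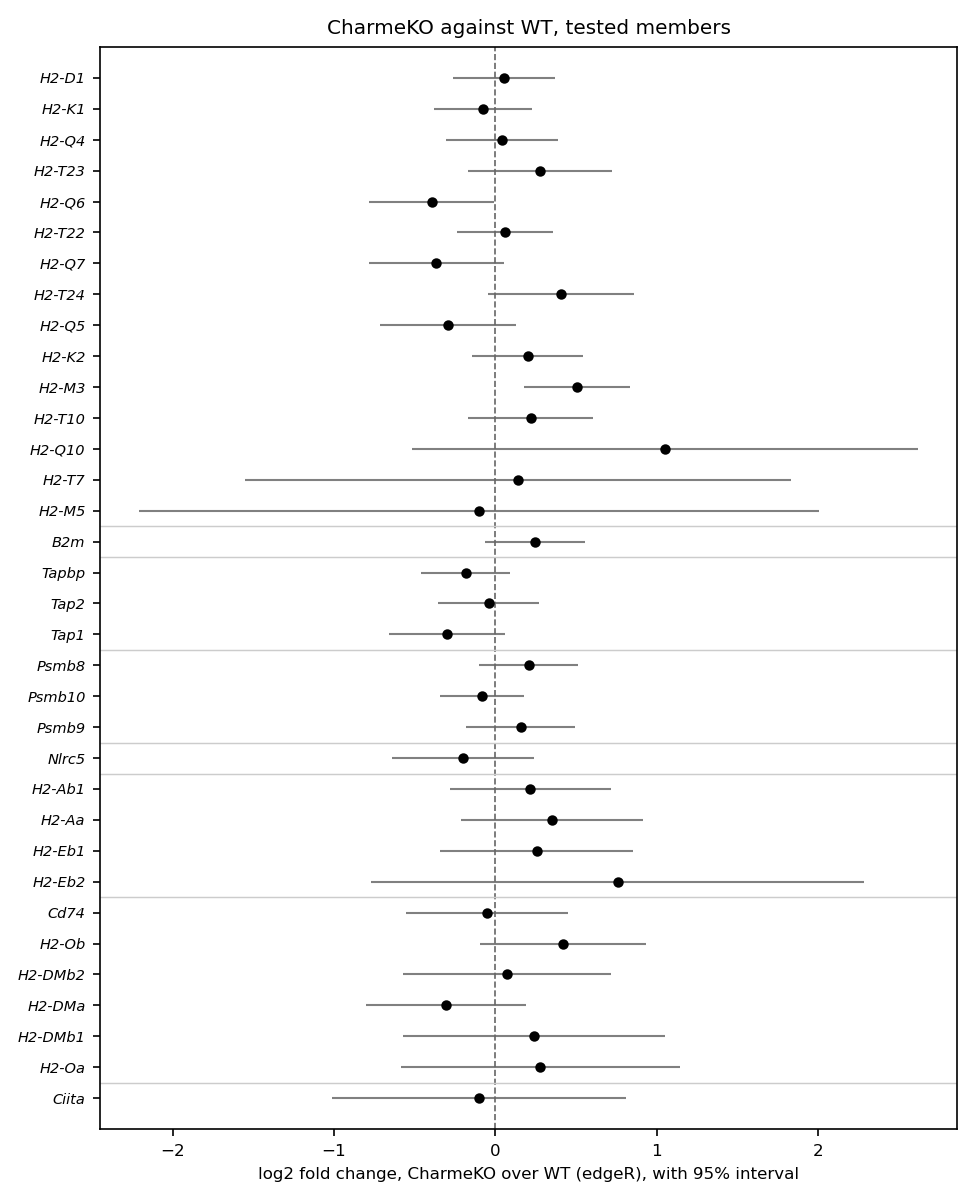
Log2 fold change of CharmeKO over WT from edgeR, with its 95% interval, for the 34 tested members grouped by role, with a line at no change. Most intervals span 0, and the widest intervals belong to the genes with few counts, such as *H2-Q10* and *H2-M5*.

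The classical heavy chains were near equal in the groups. *H2-D1* was at 1304, 1741 and 1353 CPM in WT replicates 1, 2 and 3 and at 1495, 1571 and 1504 CPM in CharmeKO. The CharmeKO values all lay inside the WT range, with a log2 fold change of 0.06 (95% interval −0.26 to 0.37, adjusted p = 0.908, edgeR). *H2-K1* was at 832, 1115 and 961 CPM in WT and at 934, 945 and 879 CPM in CharmeKO, again inside the WT range. Its log2 fold change was −0.08 (95% interval −0.38 to 0.23, adjusted p = 0.866, edgeR). As a fold of CharmeKO over WT, the intervals ran from 0.767 to 1.17 for *H2-K1* and from 0.834 to 1.29 for *H2-D1*.

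For the light chain *B2m*, without which heavy chains do not reach the surface, the libraries stood at 839, 814 and 1053 CPM in WT and at 1120, 1094 and 991 CPM in CharmeKO. WT replicate 3 reached into the CharmeKO range, and the log2 fold change was 0.24 (95% interval −0.06 to 0.55, adjusted p = 0.503, edgeR). *B2m* did not follow the heavy chains in every library. Within a library, the ratio of *B2m* counts to those of *H2-K1* and *H2-D1* combined was 0.393, 0.285 and 0.455 in WT and 0.461, 0.435 and 0.416 in CharmeKO, lowest in WT replicate 2, the library with the highest heavy chain CPM.

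The non-classical heavy chains, which present restricted peptides or serve as ligands of innate receptors, gave the largest single differences of the class I genes, and those described here were chosen after their values were seen. *H2-M3*, whose product presents N-formylated peptides of bacteria and mitochondria, was at 13.9, 15.3 and 11.5 CPM in WT and at 20.3, 20.1 and 17.9 CPM in CharmeKO. Every CharmeKO library was above every WT library. The log2 fold change was 0.50 (95% interval 0.18 to 0.83), the lowest adjusted p of the members, and did not pass the threshold (adjusted p = 0.193 in edgeR, 0.135 in DESeq2).

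*H2-T24* was at 25.5, 41.6 and 23.8 CPM in WT and at 38.6, 48.5 and 34.2 CPM in CharmeKO, with WT replicate 2 inside the CharmeKO range. Its log2 fold change of 0.41 (adjusted p = 0.445, edgeR) became 0.71 without WT replicate 2, where it passed the threshold (adjusted p = 0.0420, edgeR), and over the other alternatives its adjusted p lay between 0.107 and 0.821. *H2-T23*, which encodes Qa-1, the ligand of an inhibitory receptor of natural killer cells, was at 139, 214 and 113 CPM in WT and at 169, 216 and 182 CPM in CharmeKO (log2 fold change 0.28, adjusted p = 0.619, edgeR), and here too WT replicate 2 alone of the WT libraries lay in the CharmeKO range.

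*H2-Q6* and *H2-Q7*, closely related genes of the Qa-2 antigen, had the opposite sign. *H2-Q6* was at 103.2, 122 and 165 CPM in WT and at 113, 100.7 and 81.4 CPM in CharmeKO, and *H2-Q7* at 52.2, 65.9 and 85.6 CPM and at 59.1, 58.2 and 39.9 CPM. Both were highest in WT replicate 3 and lowest in CharmeKO replicate 3, and the groups overlapped. Their log2 fold changes were −0.40 and −0.37 (adjusted p = 0.382 and 0.455, edgeR). The ratio of *H2-Q6* to *H2-Q7* counts stayed between 1.73 and 2.04 in the 6 libraries.

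*H2-Q4*, with 415, 610 and 419 CPM in WT and 505, 490 and 488 CPM in CharmeKO, followed *H2-D1*. Their ratio was between 0.310 and 0.350 in every library, and the log2 fold change of *H2-Q4* was 0.04 (adjusted p = 0.946, edgeR). Of the other tested heavy chain genes, *H2-K2* and *H2-T7* are annotated as pseudogenes and *H2-T10* and *H2-Q5* as polymorphic pseudogenes. Together with *H2-T22*, *H2-M5* and *H2-Q10*, they had log2 fold changes between −0.30 and 1.05. The last value belongs to *H2-Q10*, with 41, 15 and 0 counts in WT and 43, 28 and 30 in CharmeKO, where every CharmeKO library was above every WT library in CPM and the 95% interval ran from −0.52 to 2.62 (adjusted p = 0.582, edgeR). Summed over all 33 heavy chain genes in the table, pseudogenes included, the level was 3041, 4101 and 3278 CPM in WT and 3498, 3623 and 3382 CPM in CharmeKO, a log2 ratio of the means of 0.01. The counting kept reads with 1 place in the genome, so reads that fit more than 1 place are missing. Of the stretches of 75 bases in the transcripts of each gene, 3.10% in *H2-K1* and 5.56% in *H2-D1* also occur in another gene, but 21.1% in *H2-Q6*, 20.7% in *H2-Q4*, 36.0% in *H2-T10* and 40.0% in *H2-T22*, whose levels are therefore uncertain. The other gene need not be a heavy chain: *H2-T22* shared 25.2% with *A930015D03Rik*, *H2-T10* 23.7% with *BC023719* and *H2-Q4* 13.4% with *Gm11131*. Genes that overlap at 1 place were not told apart from copies elsewhere, so these shares do not measure the reads lost.

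In the transport and loading complex all 3 genes had lower CharmeKO means, none past the threshold. *Tap1* was at 84.3, 131 and 83.6 CPM in WT and at 83.3, 75.6 and 83.6 CPM in CharmeKO. The groups did not overlap, but WT replicates 1 and 3 were nearly level with CharmeKO replicates 1 and 3. The log2 fold change was −0.30 (adjusted p = 0.474, edgeR) and −0.06 without WT replicate 2. *Tap2* was at 130.1, 186 and 143 CPM in WT and at 140, 156 and 151 CPM in CharmeKO (log2 fold change −0.04, adjusted p = 0.934, edgeR). *Tapbp*, which encodes tapasin, was at 380.2, 460 and 409.5 CPM in WT and at 345, 360 and 395 CPM in CharmeKO (log2 fold change −0.18, 95% interval −0.46 to 0.09, adjusted p = 0.589, edgeR).

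The immunoproteasome subunits take the place of the constitutive catalytic subunits in cells that have met interferon. *Psmb8* was at 70.6, 87.7 and 60.5 CPM in WT and at 78.1, 92.9 and 82.4 CPM in CharmeKO, *Psmb9* at 23.9, 30.9 and 21.8 CPM and at 31.7, 28.9 and 25.3 CPM, and *Psmb10* at 58.5, 66.9 and 53.5 CPM and at 51.4, 59.7 and 58.3 CPM. The groups overlapped in each, with log2 fold changes of 0.21, 0.16 and −0.08 and adjusted p-values between 0.583 and 0.829 in edgeR. Against their constitutive counterparts in the same library, the count ratio of *Psmb8* to *Psmb5* was 3.62 ± 0.446 (SD, n = 3) in WT and 3.60 ± 0.218 in CharmeKO. The ratio of *Psmb9* to *Psmb6* was 0.380 ± 0.0628 and 0.347 ± 0.0588, and that of *Psmb10* to *Psmb7* was 1.33 ± 0.281 and 1.07 ± 0.0630, with overlapping groups in all 3 ratios. *Nlrc5*, the class I transactivator, was at 14.0, 22.5 and 24.1 CPM in WT and at 18.2, 19.3 and 14.9 CPM in CharmeKO (log2 fold change −0.20, adjusted p = 0.745, edgeR).

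In 2 pairs of genes the count ratio within a library did not overlap between the groups. The ratio of *Psmb9* to *Tap1*, the divergent neighbours, was 0.284, 0.237 and 0.261 in WT and 0.381, 0.383 and 0.302 in CharmeKO, so every CharmeKO library was higher. The ratio of *H2-D1* to *H2-K1* was 1.57, 1.56 and 1.41 in WT and 1.60, 1.66 and 1.71 in CharmeKO, again without overlap. Each difference had p = 0.1 in a two-sided exact permutation test, the smallest p that 3 libraries against 3 allow, so no ratio could pass 0.05, and they were 2 of 14 ratios between members or with a partner gene that were computed. The other 12 ratios had overlapping groups and p-values between 0.2 and 1 in the same exact test.

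**Figure D4:**
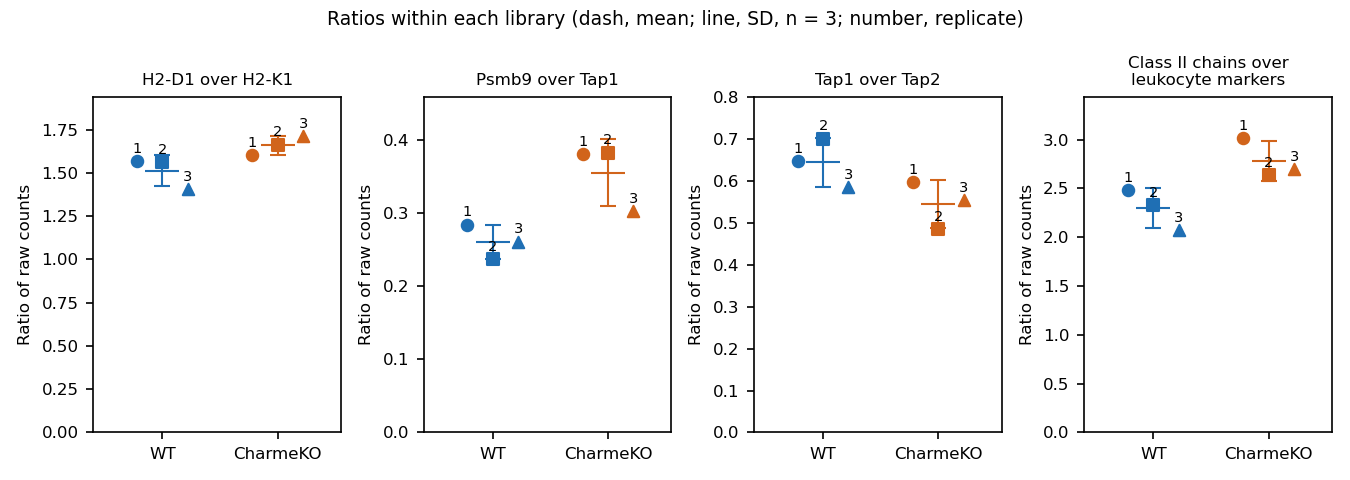
Ratios of raw counts within each library, with each replicate as a numbered point, the mean as a dash and the SD as a line (n = 3); axes start at 0. The CharmeKO points of *H2-D1* over *H2-K1*, *Psmb9* over *Tap1* and class II chains over leukocyte markers lie above all WT points, while those of *Tap1* over *Tap2* overlap with WT.

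The class II genes varied from library to library more than between the genotypes. *H2-Ab1*, the β chain of the A molecule, was at 78.6, 38.1 and 68.2 CPM in WT and at 78.9, 79.6 and 56.3 CPM in CharmeKO (log2 fold change 0.22, 95% interval −0.28 to 0.72, adjusted p = 0.756, edgeR). Its α chain *H2-Aa* was at 49.3, 21.7 and 40.3 CPM in WT and at 52.0, 54.8 and 35.2 CPM in CharmeKO (0.35, adjusted p = 0.617, edgeR). *H2-Eb1* was at 42.2, 17.6 and 43.0 CPM in WT and at 45.0, 44.4 and 32.7 CPM in CharmeKO (0.26, adjusted p = 0.761, edgeR). In all 3 chains WT replicate 2 was the lowest of the 6 libraries and CharmeKO replicate 3 the next. *Cd74* showed the same, at 131, 65.9 and 142 CPM in WT and at 111, 119 and 96.6 CPM in CharmeKO (log2 fold change −0.05, 95% interval −0.55 to 0.45, adjusted p = 0.950, edgeR).

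Of the 11 tested genes of the class II group, WT replicate 2 was the lowest library in 9, which held for 21.4% of all tested genes. In the class I group of 23 tested genes it was the highest in 8 and the lowest in 3, where 21.2% of all tested genes had it as the highest. The members of the loading step, *H2-DMa*, *H2-DMb1* and *H2-DMb2*, which exchange the peptide, and *H2-Oa* and *H2-Ob*, which restrain that exchange in B cells, were between 1.41 and 17.6 CPM, with log2 fold changes between −0.31 and 0.42 and adjusted p-values between 0.491 and 0.944 in edgeR. *Ciita*, the class II transactivator, was at 3.62, 1.52 and 3.55 CPM in WT and at 3.67, 2.74 and 1.61 CPM in CharmeKO (log2 fold change −0.10, adjusted p = 0.944, edgeR). *H2-Eb2* had at most 47 counts in a library and a log2 fold change of 0.76 (95% interval −0.77 to 2.29, adjusted p = 0.713, edgeR).

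The 5 class II chain genes summed to 171, 77.6 and 152 CPM in WT and to 177, 180.2 and 125 CPM in CharmeKO, a log2 ratio of the means of 0.27, which was −0.01 without WT replicate 2. Leukocyte markers moved with them. The 6 genes of that list, all tested, summed to 69.0, 33.3 and 73.3 CPM in WT and to 58.7, 68.4 and 46.3 CPM in CharmeKO, and the lowest library in each group was the same as for the class II chains. The 4 B cell markers summed to 57.0, 24.9 and 50.1 CPM in WT and to 46.8, 49.1 and 34.2 CPM in CharmeKO, led by *Cd79a* (18.6 ± 4.31 CPM, SD over the 6 libraries). The 9 macrophage markers lay between 16.9 and 24.2 CPM in WT and between 18.4 and 22.1 CPM in CharmeKO. The 7 dendritic cell markers summed to 57.7, 59.7 and 47.6 CPM in WT and to 73.0, 71.9 and 60.9 CPM in CharmeKO, without overlap. *Zbtb46* made up nearly all of this sum (log2 fold change 0.31, adjusted p = 0.321, edgeR). Its groups did not overlap, higher in CharmeKO as in 9.58% of genes. *Xcr1* was at 0 in every library and the other 5 were at most at 1.06 CPM. Of the 4 T cell markers, *Cd3d*, *Cd3e* and *Cd3g* were at most at 0.446 CPM. The fourth, *Cd2*, was at 3.57, 1.48 and 2.26 CPM in WT and at 3.67, 5.77 and 1.51 CPM in CharmeKO, lowest in the same library of each group as the class II chains. These markers remained after the depletion of hematopoietic lineage cells, and their part in the class II levels was not tested.

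**Figure D5:**
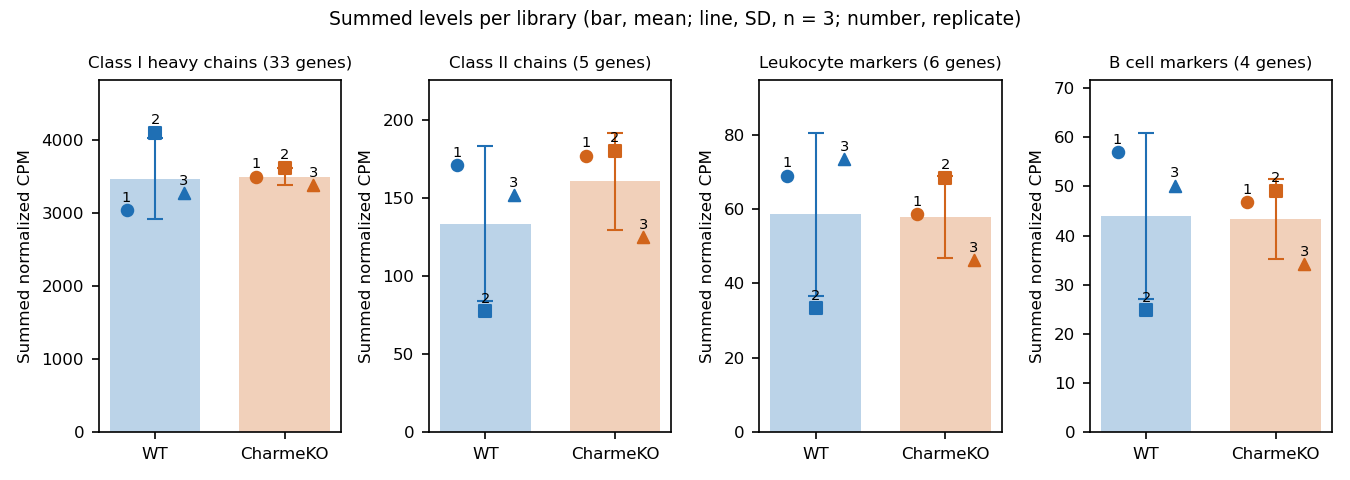
Summed normalized CPM of the class I heavy chains, the class II chains, the leukocyte markers and the B cell markers, with bars for the mean, lines for the SD (n = 3) and each replicate as a numbered point; axes start at 0. WT replicate 2 is the highest library for class I heavy chains and the lowest for the other 3 sums, and the SDs of WT and CharmeKO overlap in every panel.

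Set against the leukocyte markers of the same library, class II chains had a count ratio of 2.48, 2.33 and 2.07 in WT and of 3.02, 2.63 and 2.70 in CharmeKO, so that all CharmeKO libraries were higher. As a sum over chosen genes this ratio is given as a description, beside the 14 above. *Cd74* against the same markers was near constant, at 1.94 ± 0.0383 (SD, n = 3) in WT and 1.90 ± 0.174 in CharmeKO. *H2-Ab1* against *Ptprc*, the pan-leukocyte gene, was 7.61 ± 0.700 in WT and 7.67 ± 1.52 in CharmeKO with overlapping groups. The last ratio differs from the first in both its upper and its lower part, so it does not show whether the summed chains would separate against *Ptprc* alone. The 3 libraries with high *Xist* held the highest sums of class II chains, between 171 and 180.2 CPM, and the other 3 held between 77.6 and 152 CPM. With 2 of the 3 CharmeKO libraries and 1 of the 3 WT libraries in the first set, this split is uneven between the genotypes. With a term for it in the edgeR fit, chosen after seeing the data, the log2 fold changes were 0.16 for *H2-Aa*, 0.05 for *H2-Ab1* and 0.12 for *H2-Eb1*.

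In most tested members, WT libraries were more spread than CharmeKO libraries. The SD was larger in WT for 30 of the 34 tested members, in 22 of the 23 of the class I group, where it was so for 54.6% of all tested genes. For *H2-Q4* the SD was 111 CPM in WT and 9.40 CPM in CharmeKO, and for *H2-D1* 239 and 41.5 CPM. In both genes WT replicate 2 was the highest library. Members measured in the same libraries are not independent, so these counts are not separate observations, and a part of the genotype in the spread was not tested.

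No partner gene of the pathways passed the threshold. Of 14 tested class I partners (chaperones, peptidases and proteasome genes) 0 passed the threshold in either direction in edgeR or DESeq2. An unadjusted p-value under 0.05 was reached by 5 of them in edgeR and 2 in DESeq2, against 12.8% and 12.6% of all genes. In edgeR, 4 of these were higher in CharmeKO and 1 lower, against 5.90% and 6.87% of all genes. The groups did not overlap in 4 partners that were higher and 1 that was lower, against 9.58% and 8.59% of all genes. Of the 14, 11 had a log2 fold change above 0, where 48.8% of all genes were below 0. *Psmb6*, a constitutive subunit named after its values were seen, had the lowest adjusted p of that list, 0.251 in edgeR at a log2 fold change of 0.31. Of 11 class II partners, 8 MHC class I-like genes outside the *H2-* symbols and 20 regulators, 0 passed in either test, and 3 had an unadjusted p-value under 0.05 in edgeR (*Ifi30*, *Rela* and *Rfxap*). The lowest adjusted p among them was 0.183 in edgeR for *Ifi30*, a reductase of the class II pathway, at a log2 fold change of −0.64, whose level was 25.3 ± 3.16 CPM in the WT libraries and 16.2 ± 3.88 CPM (SD, n = 3 each) in the CharmeKO libraries. *Cxcl10*, a chemokine that interferon γ also raises, was chosen after its values were seen, at 88.4, 88.9 and 90.5 CPM in WT and at 21.1, 20.4 and 25.0 CPM in CharmeKO. *Cxcl10* is outside the partner lists and passed the threshold, lower in CharmeKO. Its log2 fold change was −2.01 (adjusted p = 3.01e-06 in edgeR, 8.40e-45 in DESeq2). Its 3 WT libraries were all above the CharmeKO libraries, a separation seen in 8.59% of genes. *Irf1* is a transcription factor that interferon γ raises and that acts on class I genes. It had a log2 fold change of −0.05 (adjusted p = 0.923, edgeR). A part of interferon γ in these values was not tested. Of the 7 cardiomyocyte markers, 3 passed the threshold in edgeR and 5 in DESeq2, all higher in CharmeKO, against 0.418% and 0.975% of all genes, with sums between 296 and 380.4 CPM in WT and between 446 and 704 CPM in CharmeKO. Their part in the members' values was not tested.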

How the data were processed

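Directional poly(A) libraries of native CFs were sequenced by the authors, who filtered the reads, aligned them with STAR to a mouse assembly with an Ensembl annotation extended by *Charme*, and deposited raw counts per gene. STAR's gene counting keeps reads that map to 1 place. The labels list the builds GRCm39 and GRCh38 with no role for either, the Ensembl release named in the methods was made for an earlier mouse build, so the build of the counts is uncertain, and the versions of the tools are not given in the sources used here. The deposited counts were tested with edgeR 4.0.16 (R 4.3.3): TMM normalization, a filter that kept genes reaching 10 counts in 2 or more libraries, a quasi-likelihood test of CharmeKO against WT and Benjamini-Hochberg adjustment over all 15789 genes, with a threshold of 0.05. The same filter and DESeq2 1.42.0, the tool of the study, formed an alternative, and the others were further normalizations and filters, a replicate block and each library left out. A term for the *Xist* split was chosen after seeing the data. The tests were checked on simulated data. 95% intervals of log2 fold changes use the t distribution of the edgeR fit. Exon lengths and shared stretches came from GENCODE M21, and promoter sequences from RefSeq GRCm38.p6. The members and gene lists were chosen with earlier results of these data known. Full statistics were planned for *B2m*, *H2-K1*, *H2-D1*, *Tap1*, *Tap2*, *Tapbp*, *Psmb8*, *Psmb9*, *Psmb10*, *Nlrc5*, *Cd74*, *Ciita*, *H2-Aa*, *H2-Ab1* and *H2-Eb1* and for any other member past the threshold in edgeR or DESeq2, names for partners past it and for members without a count, and ranges and counts for the rest. Every other member or partner given with its own values was chosen after these were seen, as were the motifs. The precision follows the depth, 9595701 to 42101393 counts per library.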

Additional observations from a re-analysis of the deposited data

How the results depend on the processing

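No member passed the threshold, lower in CharmeKO, under any of the 13 alternatives, and 1 member, *H2-T24*, passed higher in CharmeKO without WT replicate 2, against 0 without any other library (log2 fold change 0.71, adjusted p = 0.0420 in edgeR). The count of all genes past the threshold, 131, was 394 in DESeq2, 699 with genes of 1 count in any library, 302 with a replicate block and between 61 and 349 when 1 library was left out, lowest without CharmeKO replicate 1 and highest without WT replicate 2. The adjusted p of *H2-M3* lay between 0.0901 and 0.540. Single log2 fold changes were followed over the alternatives only for the members with planned full statistics and for *H2-M3*, *H2-T24* and *H2-Q6*. Among these, 8 changed sign when 1 library was left out: *H2-K1* ranged from −0.17 to 0.034, *H2-D1* from −0.018 to 0.20, *Tap2* from −0.14 to 0.12, *Psmb10* from −0.15 to 0.0062, *Cd74* from −0.33 to 0.14, *Ciita* from −0.43 to 0.16, *H2-Ab1* from −0.042 to 0.44 and *H2-Eb1* from −0.067 to 0.46. *Cd74* was also at 0.012 under the replicate block, and *Tap2* at 0.029 with the *Xist* term, which also took *H2-Aa*, *H2-Ab1* and *H2-Eb1* to 0.16, 0.05 and 0.12, and the cause was not tested. The summed class II chains ranged from −0.01 to 0.48. The titles number the replicates but state no pairing, so the main test did not pair the libraries. The deviations of same-numbered libraries correlated at 0.216, 0.0535 and 0.161, and each library correlated best with its own number. These values do not decide whether the libraries are paired. The block raised the count of all genes past the threshold, as given above, and changed no call among the members. WT replicate 3, with the fewest counts, limits what can be said of genes under about 1 CPM.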
